A study of Mus musculus with 6 samples.

Results

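Lymphatic endothelial genes were followed in whole lungs of TNF+ and TNF- mice. The 7 genes were Prox1, Lyve1, Flt4, Mmrn1, Vegfc, Nrp2 and Reln, taken as the rows of the deposited count table that carry these symbols, 7 of 49568 rows. All 7 passed the filter on low counts and were among the 19199 genes tested. The 3 TNF+ mice were TNF-Tg females, which overexpress human TNF from a single transgene copy. The 3 TNF- mice were wildtype female littermates. All were 4 months old, on a C57BL/6 background and without any other allele or agent named for these lungs. Poly(A) RNA was sequenced as a library per mouse. The promoter of the transgene and the lung cells that express it are not given in the sources used here, and no row of the table is human TNF (0 rows), so the counts do not check the genotype label.

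Total counts lay between 25396923 and 32529408 per lung, and the lung genes Sftpc, Ager and Scgb1a1 had at least 286171, 21426 and 123103 counts in every lung. Some libraries stood apart. The library of TNF+ replicate 1 had 5.22% of its counts on the single gene Gm42418, against at most 0.274% in the other lungs. The library of TNF- replicate 1 held 56570 counts of Krt4 and 45433 of Krt13, keratins of stratified squamous epithelium, where the other lungs held at most 8 of either. Without TNF+ replicate 1 and without TNF- replicate 1, the calls of the 7 genes and the list counts that changed are given beside the results.

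Lymphatic vessels of the lung run along airways, vessels and septa, drain interstitial fluid and carry leukocytes to the lymph nodes. Their endothelium takes and keeps its identity through the homeobox factor PROX1, which acts with other factors to switch on the receptor VEGFR-3, encoded by Flt4. VEGF-C, made by neighbouring cells, binds VEGFR-3, with neuropilin-2 (Nrp2) as co-receptor, and drives sprouting and survival of lymphatic endothelial cells. LYVE1, a hyaluronan receptor that leukocytes dock to, marks the initial lymphatics. Multimerin-1 (Mmrn1) is stored in platelets and is also made by lymphatic endothelium, and reelin (Reln) is a secreted glycoprotein that collecting lymphatics produce. None of these genes is restricted to lymphatics. For example, some tissue macrophages make LYVE1, and blood vessels, fibroblasts and leukocytes can make NRP2.

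On mm10 with the GENCODE M21 annotation, Prox1 (ENSMUSG00000010175.13) lies on the minus strand of chromosome 1 from 190118035 to 190170714, and Nrp2 (ENSMUSG00000025969.15) on the plus strand of the same chromosome from 62703285 to 62818695. Lyve1 (ENSMUSG00000030787.4) lies on chromosome 7, minus strand, 110850607 to 110863239, and Flt4 (ENSMUSG00000020357.3) on chromosome 11, plus strand, 49609263 to 49652739. Mmrn1 (ENSMUSG00000054641.10) is at 60924976 to 60989378 on chromosome 6, plus strand, Vegfc (ENSMUSG00000031520.6) at 54077606 to 54187096 on chromosome 8, plus strand, and Reln (ENSMUSG00000042453.14) at 21884454 to 22344702 on chromosome 5, minus strand. The merged exons were between 2449 bases long in Vegfc and 23738 in Reln. At most 0.405% of the 100-base windows of any of the 7 genes (Prox1) also occurred in a transcript of another gene. Antisense genes overlap exons of Prox1 and Reln, and each had at most 2 counts in any lung.

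The bases before the start site are shown for the member that rose (Nrp2), for the ligand of the pathway (Vegfc) and for the transcription factor whose level did not differ past the cutoff (Prox1), from RefSeq on GRCm38.p6, 5′ to 3′ on the strand of the gene and without bases inside the annotated gene. Capitals mark a match to the TATA motif on the strand opposite to the gene.
Nrp2, chr1:62703067-62703284, plus strand: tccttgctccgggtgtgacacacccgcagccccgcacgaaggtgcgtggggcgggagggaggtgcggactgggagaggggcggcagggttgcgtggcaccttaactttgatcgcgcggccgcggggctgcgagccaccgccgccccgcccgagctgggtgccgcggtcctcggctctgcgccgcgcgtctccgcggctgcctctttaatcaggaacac
Vegfc, chr8:54077282-54077531, plus strand: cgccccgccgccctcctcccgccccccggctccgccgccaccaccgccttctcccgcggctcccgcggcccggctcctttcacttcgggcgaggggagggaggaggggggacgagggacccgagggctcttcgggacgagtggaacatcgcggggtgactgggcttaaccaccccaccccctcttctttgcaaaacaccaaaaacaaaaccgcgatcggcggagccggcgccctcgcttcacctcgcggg
Prox1, chr1:190170828-190171077, minus strand: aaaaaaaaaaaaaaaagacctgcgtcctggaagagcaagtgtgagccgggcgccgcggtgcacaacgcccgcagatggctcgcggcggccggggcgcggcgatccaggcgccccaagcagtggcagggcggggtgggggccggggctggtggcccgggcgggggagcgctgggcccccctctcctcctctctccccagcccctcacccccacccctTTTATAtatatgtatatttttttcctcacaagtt
The windows of 250 bases were matched by symbol for 6 of the 7 genes (7 windows, with 2 for Prox1), and Lyve1 had none. They were searched on both strands for 5 motifs. The NF-kB motif is in 7.25% of all 32851 windows of the same length. The GATA factor motif AGATAA is in 9.99% of them, and the SOX factor motif ACAATG in 10.7%. The ETS factor motif AGGAAG is in 29.5% of the windows, and the box motif TATAAA in 12.4%. No window of the 7 matched NF-kB (0 matches). The matches were the TATA motif in a window of Prox1, on the opposite strand and 34 bases before the start, and a SOX motif in the window of Mmrn1. The motifs did not overlap. The Mmrn1 window lies at 60944067 to 60944316 on chromosome 6, inside the gene as GENCODE annotates it. The Flt4 window and the Prox1 window that is not shown also lie inside their GENCODE genes. The windows held between 42.4% (Mmrn1) and 80.0% (Reln) G and C, against a median of 52.4% over all windows.

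The first comparison asked which lymphatic endothelial genes differed between TNF+ and TNF- lungs. Lyve1, Flt4, Mmrn1 and Vegfc were lower and Nrp2 was higher in TNF+ lungs, while Prox1 and Reln did not pass the cutoff. A gene was called at an adjusted p under 0.05 in the quasi-likelihood test of edgeR, with Benjamini-Hochberg adjustment over all genes tested. Of the 7 genes, 5 were called (71.4%), where 47.4% of all genes tested were called. The share called lower was 57.1% of the 7 genes against 23.4% of all genes, and 1 was called higher (14.3%) against 24% of all genes. In 5 of the 7 the groups did not overlap, as in 58.7% of all genes. They lay lower in TNF+ lungs for 4 (28.1% of all genes) and higher for 1 (30.6% of all genes). The median log2 fold change of the 7 genes was -0.64, against 0.03 over all genes. Whole-lung RNA cannot tell fewer cells of a type from less RNA per cell. Without TNF- replicate 1, the library with the keratins, 3 of the 7 were called (Lyve1, Flt4 and Nrp2), where 37.8% of all genes were called. The same 3 were called without TNF- replicate 2, also with 37.8% of all genes. Without TNF+ replicate 1, 4 were called, with 37.3% of all genes. The values below are normalized counts, which are counts scaled to a common library size.

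**Figure D1:**
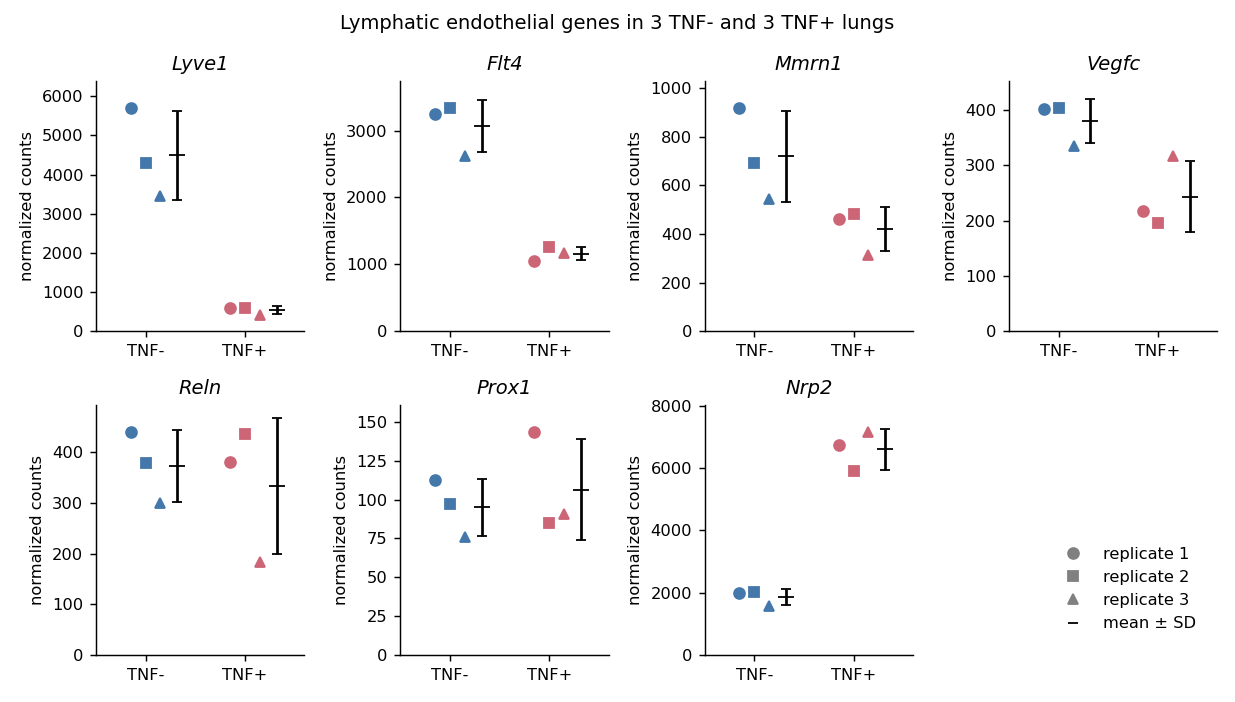
Normalized counts (vertical axes, each from 0) of the 7 genes in the 3 TNF- and 3 TNF+ lungs. Points are single lungs, with the marker shape giving the replicate number, and the black bar is the mean ± SD. Lyve1, Flt4, Mmrn1 and Vegfc lie lower and Nrp2 lies higher in every TNF+ lung than in any TNF- lung, and the groups overlap for Reln and Prox1.

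Among the genes of lymphatic identity, Prox1 had 144, 84.9 and 90.7 normalized counts in TNF+ lungs and 112, 96.9 and 75.6 in TNF- lungs. The groups overlapped, and TNF+ replicate 1 was the highest of the 6 lungs. This gave a log2 fold change of 0.16 (standard error 0.27, edgeR adjusted p = 0.655), with a 95% interval of -0.46 to 0.77. That interval spans a 0.728-fold to a 1.71-fold level in TNF+ lungs. The raw counts of Prox1 were 82 to 118 per lung, the lowest of the 7 genes. Without TNF+ replicate 1 the log2 fold change was -0.15.
Reln gave the same picture of overlap. It had 381, 436 and 182 normalized counts in TNF+ lungs against 441, 379 and 299.8 in TNF- lungs, so that TNF+ replicate 3 was the lowest of the 6 and the other TNF+ lungs lay within the range of the TNF- lungs. A log2 fold change of -0.17 resulted (standard error 0.30, edgeR adjusted p = 0.676, 95% interval -0.87 to 0.53), and 0.12 without TNF+ replicate 3.

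Lyve1, the hyaluronan receptor, had the largest change of the 7 genes. It had 604, 596 and 415 normalized counts in TNF+ lungs and 5702, 4298 and 3457 in TNF- lungs. Every TNF+ lung was far below the lowest TNF- lung. Lyve1 thus had a log2 fold change of -3.06 (standard error 0.22, edgeR adjusted p = 3.03e-05), a level 8.35-fold lower with a 95% interval of 5.84 to 11.9. It ranked 428 of the 19199 genes by p, and 0.891% of genes had a log2 fold change as low or lower. With each lung left out the log2 fold change stayed between -3.23 and -2.87.
Mmrn1, the other surface and matrix marker, moved less. Its normalized counts were 462, 482 and 315 in TNF+ lungs and 919, 694 and 545 in TNF- lungs. The groups did not overlap, but the highest TNF+ lung and the lowest TNF- lung were close. The log2 fold change was -0.78 (standard error 0.23, edgeR adjusted p = 0.0227). The call was lost without TNF- replicate 1 (log2 fold change -0.59, edgeR adjusted p = 0.0581), without TNF- replicate 2 (edgeR adjusted p = 0.0526) and without TNF+ replicate 3 (edgeR adjusted p = 0.0558).

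In the VEGF-C pathway the receptor, the ligand and the co-receptor differed in size or direction. Flt4, the gene of VEGFR-3, had 1051, 1258 and 1175 normalized counts in TNF+ lungs and 3241, 3339 and 2623 in TNF- lungs. All TNF+ lungs lay within a narrow range under all TNF- lungs. The log2 fold change was -1.40 (standard error 0.12, edgeR adjusted p = 6.95e-05), a 2.64-fold lower level with a 95% interval of 2.17 to 3.22.
Vegfc, the ligand, had 218, 196 and 317 normalized counts in TNF+ lungs and 403, 404 and 334 in TNF- lungs. TNF+ replicate 3 came close to the lowest TNF- lung. A log2 fold change of -0.64 resulted (standard error 0.20, edgeR adjusted p = 0.0296). The call was lost without TNF+ replicate 1 (edgeR adjusted p = 0.0806), TNF+ replicate 2 (edgeR adjusted p = 0.0989), TNF- replicate 1 (edgeR adjusted p = 0.081) and TNF- replicate 2 (edgeR adjusted p = 0.0911), and with library totals in place of TMM factors (edgeR adjusted p = 0.0554).
Nrp2, the co-receptor, moved the other way. It had 6744, 5898 and 7176 normalized counts in TNF+ lungs and 2003, 2026 and 1569 in TNF- lungs. The lowest TNF+ lung was well above the highest TNF- lung. This was a log2 fold change of 1.82 (standard error 0.14, edgeR adjusted p = 3.34e-05), a 3.53-fold higher level with a 95% interval of 2.85 to 4.39. An annotated transcript of unknown kind inside Nrp2, Gm37121 on the same strand, had 31, 40 and 64 counts in TNF+ and 12, 21 and 8 in TNF- lungs.

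Levels were compared between genes only per length, as RPKM, the count scaled by merged exon length and by the TMM-scaled library total. In TNF- lungs Lyve1 was the most abundant of the 7 at 50.75 ± 12.85 RPKM (SD, n = 3), followed by Flt4 at 12.3 ± 1.56 (SD, n = 3). Nrp2 (5.21 ± 0.720), Vegfc (5.13 ± 0.537) and Mmrn1 (4.05 ± 1.06; SD, n = 3 each) followed, and the ranges of these neighbours overlapped. Reln (0.519 ± 0.0984) and Prox1 (0.374 ± 0.0726) were the lowest and also overlapped. In TNF+ lungs Nrp2 was the most abundant at 18.4 ± 1.81 RPKM, ahead of Lyve1 (6.09 ± 1.21) and Flt4 (4.66 ± 0.417; SD, n = 3 each). There the ranges of Lyve1 and Flt4 overlapped, as did those of Flt4 and Vegfc (3.28 ± 0.875) and those of Vegfc and Mmrn1 (2.36 ± 0.515). Reln (0.463 ± 0.186) and Prox1 (0.419 ± 0.128) were again the lowest and overlapped.

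The ratio of each gene to Prox1 within a lung does not depend on the scaling between libraries. Per count of Prox1 there were 4.202, 7.02 and 4.57 counts of Lyve1 in TNF+ lungs and 50.8, 44.4 and 45.7 in TNF- lungs, with a difference in mean log2 ratio of -3.19. Flt4 had 7.31, 14.8 and 12.96 counts per Prox1 count in TNF+ lungs against 28.9, 34.5 and 34.7 in TNF- lungs. Nrp2 had 46.9, 69.5 and 79.1 against 17.8, 20.9 and 20.8. Mmrn1 had 3.21, 5.68 and 3.47 counts per Prox1 count in TNF+ lungs against 8.19, 7.16 and 7.21, and Vegfc had 1.51, 2.30 and 3.50 against 3.58, 4.17 and 4.42. For these 5 genes the groups did not overlap (exact permutation test, two-sided, p = 0.1, which is the lowest value possible with 3 lungs against 3, and adjusted p = 0.12 over the 6 ratios). The ratio of Reln to Prox1 was 3.92, 3.91 and 3.96 in the TNF- lungs, a spread smaller than for any other gene there. Prox1 had 118, 101 and 85 raw counts in these lungs. Counting error alone is larger than this spread, so no meaning is read into it. In TNF+ lungs the ratio of Reln to Prox1 was 2.65, 5.13 and 2.01, on both sides of the TNF- values (exact permutation test, p = 0.4).

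**Figure D2:**
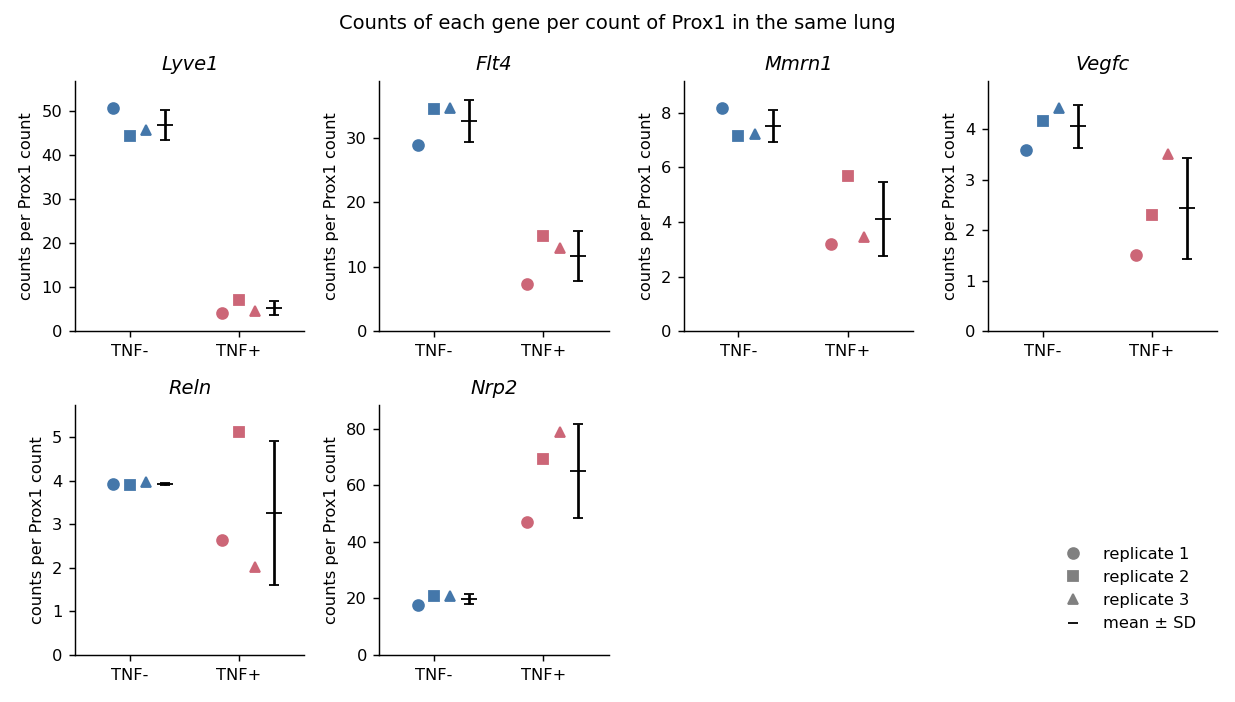
Counts of each of the other 6 genes per count of Prox1 in the same lung (vertical axes, each from 0). Points are single lungs, with the marker shape giving the replicate number, and the black bar is the mean ± SD. The Lyve1 ratio is at most 7.02 in TNF+ lungs and at least 44.4 in TNF- lungs, and the Reln ratio is 3.91 to 3.96 in TNF- lungs and 2.01 to 5.13 in TNF+ lungs.

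The likeness of a gene to Prox1 was taken as the root mean square difference of their centred log2 CPM values over the 6 lungs, among the 14998 genes whose mean log2 CPM (CPM, a count scaled to library size) reached 1. The nearest genes were Brwd3 (0.0744), Rbm41 (0.0857), Tes3-ps (0.0906), Ube3a (0.100) and Zkscan8 (0.126), whose normalized counts were also highest in TNF+ replicate 1. None of the other 6 lymphatic endothelial genes was near. Reln ranked 8799 (0.440), Mmrn1 10687, Vegfc 10898, Flt4 13219, Nrp2 13404 and Lyve1 14656 (1.61). Among the 7 genes themselves, Mmrn1 and Reln were the closest pair (0.334) and Lyve1 and Nrp2 the farthest (2.45).

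The RNA of 12 pan-endothelial genes was taken as a scale, so that lymphatic endothelial genes could be read beside it. It is RNA of a chosen set and not a measure of the number of endothelial cells. Of the 12, 11 were called lower (10 without TNF+ replicate 1 and also without TNF- replicate 1) and 1 higher in TNF+ lungs, with a median log2 fold change of -0.94 against 0.03 over all genes. Ramp2, the accessory protein of the adrenomedullin receptor (log2 fold change -2.49), and Tek, the angiopoietin receptor TIE2 (-1.94), were lower, and the sialomucin Emcn was higher (0.93). Their summed normalized counts were 72402 to 82918 in TNF+ and 135099 to 157747 in TNF- lungs. Per 1000 pan-endothelial counts, Prox1 had 1.91, 1.17 and 1.09 counts in TNF+ lungs and 0.712, 0.618 and 0.560 in TNF- lungs, without overlap. Lyve1 had 8.01, 8.24 and 5.003 against 36.1, 27.4 and 25.6, and Nrp2 had 89.5, 81.5 and 86.5 against 12.7, 12.9 and 11.6. Flt4 had 13.9, 17.4 and 14.2 against 20.5, 21.3 and 19.4, so that its groups were nearer than on the scale of all genes. Vegfc had 2.89, 2.70 and 3.83 against 2.55, 2.58 and 2.48, higher in TNF+ lungs without overlap and so opposite to its direction on the scale of all genes. Its groups overlapped per 1000 counts of Pecam1, with 12.4, 10.8 and 16.9 against 14.4, 14.1 and 14.1, and lay higher in TNF+ lungs per 1000 counts of Cdh5, with 21.2, 22.2 and 24.4 against 15.1, 15.6 and 17.1. For Mmrn1 and Reln the groups overlapped on the pan-endothelial scale.
With library sizes set to the pan-endothelial sum, the edgeR fit moved the median log2 fold change of all genes to 1.00, a shift of 0.96. In this fit 73.4% of all genes tested were called higher and 5.6% lower, and every count given with this scaling stands beside those shares. On this scale Prox1 was called higher in TNF+ lungs (log2 fold change 1.13, standard error 0.27, edgeR adjusted p = 0.00402) and so was Reln (0.83, standard error 0.33, edgeR adjusted p = 0.0413). The Reln value leaned on single lungs. The group difference in its log2 ratio to the pan-endothelial sum was 0.72, with overlap. That difference was 0.44 without TNF+ replicate 2 and 1.16 without TNF+ replicate 3. Mmrn1 (0.21, edgeR adjusted p = 0.418) and Vegfc (0.31, edgeR adjusted p = 0.139) changed sign and were not called. Lyve1 (-2.07, edgeR adjusted p = 6.62e-05), Flt4 (-0.43, edgeR adjusted p = 0.0123) and Nrp2 (2.79, edgeR adjusted p = 2.64e-06) kept their direction and were called. Lyve1 and Flt4 were thus lower, and Nrp2 higher, under both scalings. Set against the single endothelial gene Cdh5, however, Flt4 overlapped, with 102, 142 and 90.4 counts per 1000 counts of Cdh5 in TNF+ lungs and 121, 129 and 134 in TNF- lungs (exact permutation test, two-sided, p = 0.4, adjusted p = 0.4 over 7 ratios). Against Pecam1 its groups did not overlap, with 60.1, 69.3 and 62.4 in TNF+ and 116, 117 and 111 in TNF- lungs (exact permutation test, p = 0.1, adjusted p = 0.175 over 7 ratios). The direction of the other 4 genes depended on the scaling or on single lungs.

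**Figure D3:**
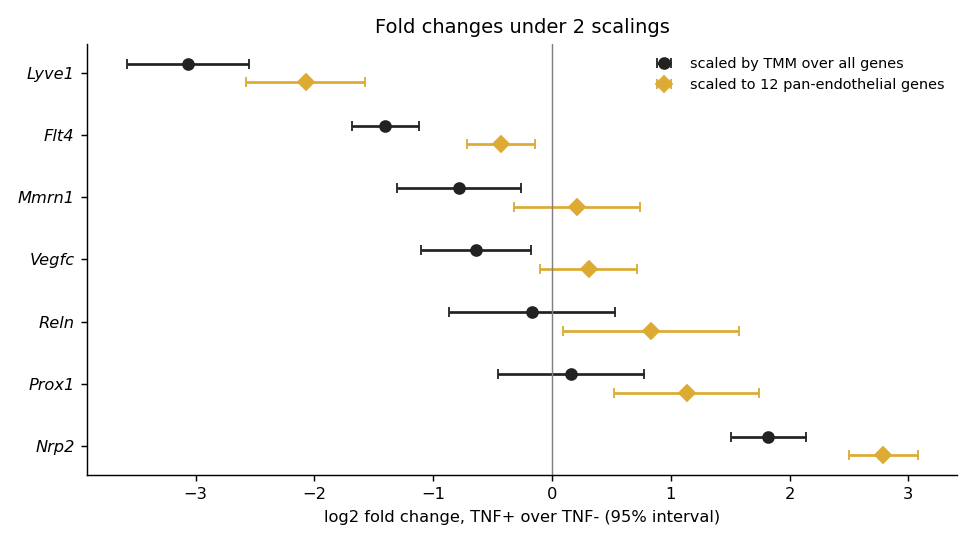
Log2 fold changes of the 7 genes, TNF+ over TNF- lungs (horizontal axis), with 95% intervals from edgeR. Circles are values scaled by TMM over all genes and diamonds are values scaled to the sum of 12 pan-endothelial genes. Each diamond lies to the right of its circle, and Lyve1 and Flt4 are below 0 and Nrp2 above 0 on both scales, Mmrn1, Vegfc and Reln change sign, and Prox1 moves from 0.16 to 1.13.

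The list counts that follow were read beside the shares of all genes called with TMM scaling, 23.4% lower and 24% higher. Among 13 other lymphatic endothelial markers, 7 were called lower and 2 higher in TNF+ lungs with TMM scaling, with a median log2 fold change of -0.63, and with the pan-endothelial scaling 2 were lower and 6 higher. Ackr2, the atypical receptor that clears inflammatory chemokines from lymphatics, had 309.9, 385 and 340.2 normalized counts in TNF+ lungs against 2055, 2169 and 1845 in TNF- lungs. That is a log2 fold change of -2.55 (standard error 0.12, edgeR adjusted p = 5.09e-06). Ackr4, the scavenger of CCL19 and CCL21, was lower by a log2 fold change of -2.38, Tbx1 by -1.19, the integrin Itga9 by -0.95 and podoplanin (Pdpn) by -0.71. Pdpn is also made by alveolar type 1 cells. Ccl21a, the chemokine that draws dendritic cells into lymphatics, had 4467, 4844 and 5467 normalized counts in TNF+ lungs and 6000.4, 5046 and 5291 in TNF- lungs, and its groups overlapped (log2 fold change -0.15, edgeR adjusted p = 0.335). Ccl21b and Ccl21c had log2 fold changes of -0.63 and -0.64 and were called lower. These genes are uncertain as separate genes, since 50.3% of the windows of Ccl21a and 100% of those of Ccl21b occur in another gene, so that the calls of Ccl21b and Ccl21c need not be separate. Maf (1.17) and Cldn11 (1.83) were higher. Cldn11 had few raw counts, 26, 38 and 35 in TNF+ lungs and 12, 7 and 13 in TNF- lungs. Which cells the Maf RNA came from was not tested. Klhl4 (-0.29), Fxyd6 (0.27) and Thy1 (0.40) did not pass the cutoff.

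Of the 8 other transcription factors and partners of lymphatic fate, 2 were called lower, 1 was called higher and 5 did not pass the cutoff. Sox18, which switches on Prox1 in the embryo, had 2489.9, 2597 and 3300.5 normalized counts in TNF+ lungs against 3260.0, 3387 and 3586 in TNF- lungs (log2 fold change -0.29, edgeR adjusted p = 0.0875). Nr2f2, the partner of Prox1 in venous and lymphatic fate, had 1074, 1003 and 1351 against 1333, 1139 and 1007 (log2 fold change -0.02, edgeR adjusted p = 0.911). Gata2, which lymphatic valves need, was lower by a log2 fold change of -2.05 (edgeR adjusted p = 4.99e-06), Tal1 had -0.74 and Hhex had 0.63. The median of the list with Prox1 was -0.06, and with the pan-endothelial scaling 6 of its 9 genes were called higher and 1 lower. Sox18 and Nr2f2 were chosen for naming after their values were seen.
Of 14 lymphatic valve genes, 8 were called lower and none higher (0 genes) in TNF+ lungs, with a median of -0.61, and with the pan-endothelial scaling 2 were lower and 6 higher. Acvrl1, the receptor for BMP9 on all endothelium, fell by 1.83 on the log2 scale.

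Around VEGF-C, 7 other genes encode VEGF ligands or process VEGF-C. Of these, 3 were called lower, 1 higher and 3 did not pass the cutoff, and with the pan-endothelial scaling, Vegfc counted, 3 were lower and 3 higher. With TMM and Vegfc counted 4 were lower, and 3 without TNF+ replicate 1 and also without TNF- replicate 1. Vegfd, the other ligand of VEGFR-3, had 729, 447 and 592 normalized counts in TNF+ lungs and 1724, 2009 and 1412 in TNF- lungs (log2 fold change -1.54, standard error 0.20, edgeR adjusted p = 0.000459). Ccbe1, the cofactor without which VEGF-C is not cleaved to its active form, had 115, 135 and 123 against 524, 464 and 326 (log2 fold change -1.82, standard error 0.20, edgeR adjusted p = 0.000221). Adamts3, the protease that Ccbe1 assists, had 26.4, 22.8 and 30.2 against 67.6, 60.4 and 25.8 and the groups overlapped (log2 fold change -0.95, edgeR adjusted p = 0.0745). Vegfa, which acts on blood vessels, was lower by -1.60, Pgf was higher by 0.98, and Vegfb (log2 fold change -0.23) and Adamts14 (-0.35) did not pass the cutoff. Vegfa, Vegfd and Ccbe1 were each lower in all TNF+ than in all TNF- lungs.
Of the other VEGF receptors, Kdr (VEGFR-2) was lower by a log2 fold change of -1.44 and Flt1 (VEGFR-1) by -1.63, next to -1.40 for Flt4. Whether the Flt4 RNA came from lymphatic or from blood vessels was not tested. Nrp1, the paralogue of Nrp2, had 4709, 4059.9 and 4288 normalized counts in TNF+ lungs and 5301, 5448 and 3832 in TNF- lungs, with overlap (log2 fold change -0.16, standard error 0.15, edgeR adjusted p = 0.399). Of the 5 receptors and co-receptors, Flt4 included, 3 were called lower and 1, Nrp2, higher, and with the pan-endothelial scaling 3 were lower and 2 higher.
Nrp2 is also the receptor of class 3 semaphorins. Of 12 semaphorin and plexin genes, 8 were called lower and 1 higher in TNF+ lungs, with a median of -1.003, and with the pan-endothelial scaling 4 were lower and 5 higher. Sema3f, the main repulsive ligand of neuropilin-2, had 2185, 2651 and 2603 normalized counts in TNF+ lungs against 10479, 8578 and 8577 in TNF- lungs (log2 fold change -1.90, standard error 0.13, edgeR adjusted p = 2.45e-05). Sema3e fell by 2.03 on the log2 scale, and its receptor Plxnd1 was higher (1.25).

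**Figure D4:**
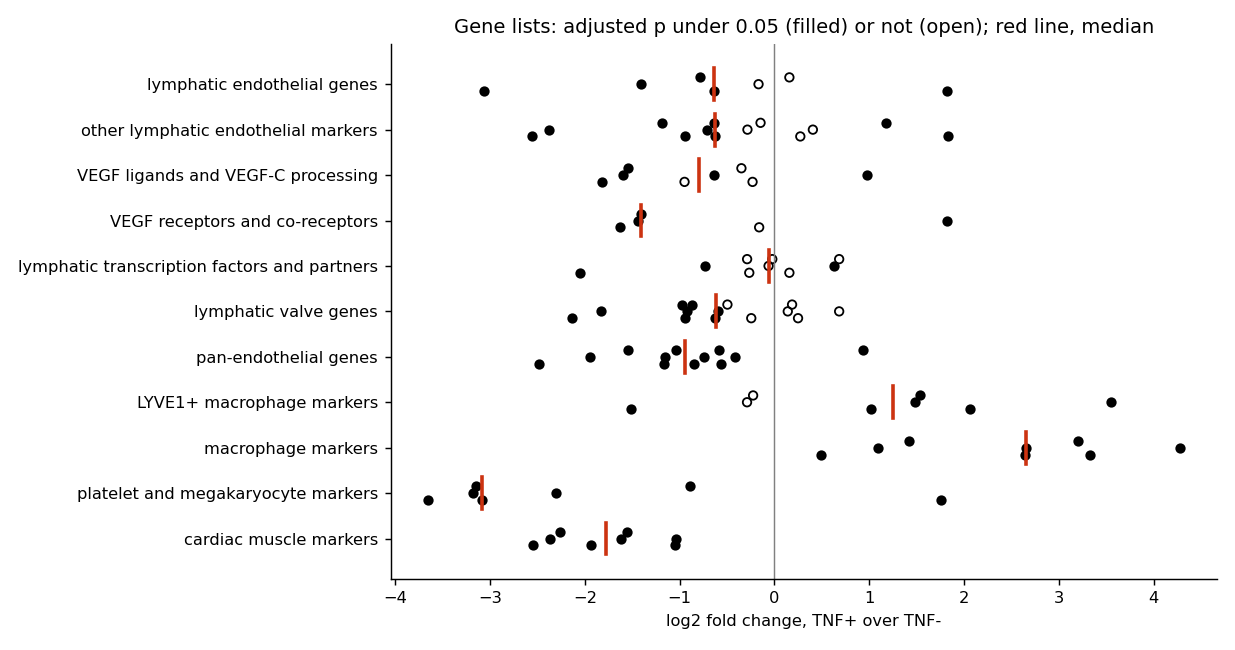
Log2 fold changes, TNF+ over TNF- lungs with TMM scaling (horizontal axis), of the genes of each list. Each point is a gene, filled where the edgeR adjusted p was under 0.05, and the red line is the median of the list. The 12 pan-endothelial genes have a median of -0.94, the 7 lymphatic endothelial genes of -0.64 and the 8 macrophage markers of 2.65. With the pan-endothelial scaling, which moves the median of all genes to 1.00, the medians of the lymphatic endothelial genes, their other markers, the VEGF ligands, the transcription factors and the valve genes are 0.31, 0.34, 0.17, 0.91 and 0.34.

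The angiopoietin system, which also acts on lymphatic vessels, had 5 of 6 genes called lower and none higher, with Tek (-1.94) and the phosphatase Ptprb (-2.07) among them. With the pan-endothelial scaling 2 were lower and 1 higher, though Tek and Tie1 are themselves in that sum. Of 3 other reelin pathway genes, the receptor Lrp8 was higher (269 to 417 normalized counts in TNF+ and 46.6 to 58.7 in TNF- lungs, log2 fold change 2.68, edgeR adjusted p = 4.42e-05). The receptor Vldlr was lower (-0.77), though with the pan-endothelial scaling none of the list was. The adaptor Dab1 did not pass the cutoff and had at most 6.21 normalized counts in TNF+ lungs.
Hyaluronan, the ligand of LYVE1, is made, bound and degraded by further genes. Of 10 tested, 4 were called higher and 3 lower, with a median of 0.41, and with Lyve1 counted and the pan-endothelial scaling 6 were higher and 3 lower. With TMM and Lyve1 counted 4 were lower, and 5 without TNF+ replicate 1. Cemip, which depolymerizes hyaluronan, had 177, 187 and 291 normalized counts in TNF+ lungs against 10.5, 8.64 and 16.0 in TNF- lungs (log2 fold change 4.201, standard error 0.33, edgeR adjusted p = 3.95e-05). The receptor Cd44 was also higher (1.01). Tmem2, a cell surface hyaluronidase, was lower (-1.71).

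Markers of other cells that can express these genes were read beside them. LYVE1 is also made by a subset of tissue macrophages. Of 8 markers of such macrophages, 5 were called higher in TNF+ lungs and 1 lower, and 6 were higher and 0 lower with the pan-endothelial scaling, while 2 were lower without TNF+ replicate 1. Timd4 had 526, 722 and 435 normalized counts in TNF+ and 42.8, 46.1 and 54.3 in TNF- lungs (log2 fold change 3.55), and Mrc1 had a log2 fold change of 1.53. The gene that was lower was Cbr2 (-1.51), which lung epithelium also makes, and which alone had 45757 to 62830.5 normalized counts in TNF+ and 127153 to 199479 in TNF- lungs. The sum of the list was 58936 to 77709 in TNF+ and 139634 to 212430.0 in TNF- lungs, so its sum and its count of genes pointed in opposite directions. No marker of this list was at 0 in any lung. The 8 general macrophage markers were each called higher (6 of 8 without TNF+ replicate 1 and also without TNF- replicate 1), with a median of 2.65 and sums of 283805 to 311127 against 88205 to 89358. Adgre1 (log2 fold change 3.20) and Itgam (2.64) had the smallest adjusted p of the list. Lyve1 was lower and Nrp2 higher in the same lungs. What part macrophages have in either value was not tested.
MMRN1 is stored in platelets. Of 7 platelet and megakaryocyte markers 6 were called lower and 1 higher, with sums of 3176 to 4043 in TNF+ and 5785 to 7733 in TNF- lungs and no marker at 0 in any lung. Ppbp (-3.65) and the integrin Itga2b (-3.09) were lower, and Pf4, which macrophages can also make, was higher (1.75). Their part in the lower Mmrn1 was not tested.
VEGF-C and its co-receptor are also made in blood vessels. Of 8 arterial markers, 5 were called lower (2 lower and 2 higher with the pan-endothelial scaling) and 0 higher (1 without TNF+ replicate 1 and without TNF- replicate 1), with a median of -0.71 and sums of 8237 to 9285 in TNF+ and 14609 to 16623 in TNF- lungs. Gja5 (-2.08) and Fbln5 (-1.53) were among them. Of 7 venous markers, 3 were called lower and 1 higher (2 lower and 4 higher with the pan-endothelial scaling), with a median of -0.02 and sums, mostly of Vwf in TNF- lungs, of 9113 to 9863 against 42734 to 55321. Vwf (-3.22) and the transporter Slc6a2 (-5.16) were lower and the atypical chemokine receptor Ackr1 was higher (3.26). These parts were not tested either.

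Prox1 is also made by heart muscle and by neuroendocrine cells. The 8 cardiac muscle markers, which lung veins carry in mice, were each called lower (6 of 8 with the pan-endothelial scaling, median -1.78, sums of 10112 to 12379 in TNF+ and 35286 to 46423 in TNF- lungs), with Tnnt2 (-1.55) and Actc1 (-2.37) among them. Of 5 tested neuroendocrine markers, 4 were called lower (1 lower and 1 higher with the pan-endothelial scaling), and 1 was called lower without TNF+ replicate 1 and without TNF- replicate 1. Of 6 mesothelial markers, 4 were called lower (2 lower and 1 higher with the pan-endothelial scaling), with sums of 4431 to 7214 against 11225 to 16491. Of 10 squamous and skeletal muscle markers 5 were tested and 3 called lower (0 without TNF+ replicate 1 and 2 without TNF- replicate 1), and their sum was 143411 in TNF- replicate 1 and at most 1015 in TNF+ lungs. The same TNF- lung had the highest normalized counts of Lyve1, Mmrn1, Reln and Prox1 among TNF- lungs. The part of carried tissue in these values was not tested. Without that lung the log2 fold changes were -2.87 for Lyve1, -1.38 for Flt4 and 1.86 for Nrp2, all still called. Those of Mmrn1 (-0.59) and Vegfc (-0.62) were no longer called, and Reln was at -0.06 and Prox1 at 0.27.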

How the data were processed

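Whole lungs of 3 TNF+ and 3 TNF- mice were sequenced as stranded poly(A) libraries. The authors trimmed reads, aligned them to mm10 and deposited raw counts per gene symbol, without normalization. The submitters' processing notes name Trimmomatic 0.36, STAR 2.5.2b, featureCounts and GRCm38.p5. The strand setting and gene annotation are not given in the sources used here. Columns were matched to mice by the genotype and number in their names.

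Low counts were removed with filterByExpr. Counts were scaled by TMM and fitted in edgeR 4.0.16 (R 4.3.3), genotype being the only term, with a cutoff of 0.05 on the Benjamini-Hochberg adjusted p. The standard error is the absolute log2 fold change over the square root of F. Log2 CPM used a prior count of 2. The floor of 3 counts was 0.0922 to 0.118 CPM, which covers counting error only. Lengths and positions came from GENCODE M21, which need not be the annotation used for counting. Programs were tested on simulated data.

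The 7 genes and the 19 other lists were chosen with earlier results of these data known, so p-values were adjusted over all genes and no list was tested. Up to 4 genes of a list were named by the smallest adjusted p in each direction, and all VEGF genes and lymphatic markers could be named. The 16 alternatives were DESeq2 1.42.0, voom in limma 3.58.1, size factors of DESeq2, library totals, no filter, a floor of 10 counts per lung, robust dispersion, the replicate block, each lung left out, absolute log2 fold changes of 1 or more, and the pan-endothelial sum. Lists and ratios without single lungs were added after seeing the data. The replicates were separate mice. Within a genotype, lungs differed beyond sampling noise (chi-square over its degrees of freedom, 49.6 to 150).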

Additional observations from a re-analysis of the deposited data

How the results depend on the processing

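Of 112 recomputed fold changes of the 7 genes, 95 kept their direction and their side of the cutoff, 11 lost the call in the same direction, 1 gained it in the same direction and 5 changed sign. Those that changed sign include 2 that lost the call and 1 that gained it, so that 13 lost and 2 gained it in all. Lyve1, Flt4 and Nrp2 were called under all 16 alternatives. The number of the 7 genes called was 5 with DESeq2 (48.1% of all genes called), with limma-voom (47%) and with DESeq2's size factors (47.3%), 3 to 5 with each lung left out (37.3% to 46.6%), and 3 when an absolute log2 fold change of 1 or more was required (22.5%), which also left 4320 of 9096 genes called overall. With each lung left out 7347 to 9164 genes were called. With the replicate block 4 of the 7 genes and 7686 genes in all were called, and Vegfc lost its call (log2 fold change -0.67, edgeR adjusted p = 0.0605). Same-numbered mice are different animals. The deviations of same-numbered lungs had a mean correlation across genes of -0.13 over 3 pairs, against 0.07 over the other 6. Whether same-numbered lungs share a litter or a batch was not tested. The log2 fold change of Prox1 was -0.15 without TNF+ replicate 1 and that of Reln 0.12 without TNF+ replicate 3, and with each lung left out they ranged from -0.15 to 0.30 and from -0.41 to 0.12. Scaled to the pan-endothelial sum, Mmrn1 was at 0.21, Vegfc at 0.31 and Reln at 0.83, where the scaling itself shifts the median of all genes by 0.96. That shift depends on the choice of the 12 genes. Prox1 had 82 to 118 counts per lung and a standard error of 0.27, and Reln 193 to 463 counts and 0.30.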
